A study of Rattus norvegicus with 20 samples.

Results

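The genes described are 10 that encode proteins of mitochondrial fatty acid oxidation: Cpt1a, Cpt2, Slc25a20, Acadm, Acadl, Acadvl, Hadha, Hadhb, Eci1 and Decr1. They were chosen by name, and a probe set was counted as a member where its annotation gave exactly 1 of these symbols. This gave 12 probe sets of 15866 on the rat array, of which 11 were bright enough to be tested, and all 10 genes are among the 7056 named genes tested. The study measured liver RNA of male Wistar rats given less food than controls. No genetic change is named in the labels, so the groups differed in food and in duration.

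Food was withheld at 4 levels, 5%, 10%, 20% and 30%, beside an unrestricted control, for 1 week or for 1 month. Restriction began in rats of 6 weeks of age. The labelled age is 6 weeks on the 1-week arrays and 9 weeks on the 1-month arrays, and the labels do not say to which day of the experiment it belongs. A fast of 16 h preceded sampling in every group, the controls included. RNA of 5 rats was pooled in each of the 10 groups, and each pool was measured on 2 arrays. There were thus 2 control pools and 8 restricted pools, and no combination of level and duration had a second pool. The spread between rats within a pool was not measured, and the 2 arrays of a pool share its RNA, so they were averaged and counted as 1 sample.

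Fatty acids that reach the liver cell are joined to coenzyme A and then passed to carnitine to cross the inner mitochondrial membrane. Cpt1a makes the acylcarnitine at the outer membrane, Slc25a20 exchanges it for free carnitine across the inner membrane, and Cpt2 turns it back into acyl-CoA in the matrix. Each round of oxidation then begins with an acyl-CoA dehydrogenase matched to the chain length (Acadvl, Acadl or Acadm). It continues, for long chains, on the trifunctional protein made of Hadha and Hadhb. Eci1 and Decr1 are auxiliary enzymes that move or remove the double bonds of unsaturated fatty acids so that the same rounds can proceed. In the liver of a fasted animal the pathway supplies acetyl-CoA for ketone bodies and energy for glucose synthesis.

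Liver markers were bright in every pool. Of the 11 hepatocyte markers on the array all were tested, and 0 passed in the comparison of restricted and control pools by limma (1 at an unadjusted p under 0.05). Their summed signal was 44522 to 45031 in the control pools and 42134 to 44707 in the restricted pools. Alb read 10756 in every pool after quantile normalisation, so neither its part of the sum nor its test could show a difference. Of the markers of fat cells, 4 of the 5 on the array (Lep, Plin1, Fabp4, Lipe) lay under the filter on low signals, as did 7 of 8 markers of skeletal and heart muscle. Arrays of a pool correlated at 0.902 to 0.932 and pools at 0.891 to 0.932 across probe sets. The trimmed mean of the deposited signals ranged from 38.8 to 99.6, a 2.57-fold spread, which was removed by quantile normalisation. Signals below are the normalised intensities in array units (the geometric mean of the 2 arrays), and log2 differences are taken from them. Signals of different probe sets cannot be ranked against each other, because each probe set has its own affinity. In pooled liver, fewer cells of a type and less RNA per cell cannot be told apart.

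With food restriction the RNA of both carnitine acyltransferases, of both auxiliary enzymes and of 1 trifunctional subunit was higher, while the carnitine exchanger and the 3 dehydrogenases did not pass the test. The first comparison, called the step here, sets the mean of the 8 restricted pools against that of the 2 control pools. Of the 10 genes, 5 rose (Cpt1a, Cpt2, Hadhb, Eci1 and Decr1) and 0 fell at a limma adjusted p under 0.05 over all 9520 tested probe sets, of which 3.16% were called higher. The median step of the 10 genes was 0.40 on the log2 scale, against -0.00 over all 7056 named genes. For 8 of the 10 genes every restricted pool lay above both control pools, which held for 7.55% of all tested probe sets. The count depended on the scaling, with 3 genes on the signals as deposited and 5 after median centring, and 5 genes had every restricted array above every control array. The 7.55% belongs to the normalised pool means alone, and the other counts are given without a share over all probe sets. On the normalised pool means the exceptions were Acadm, with 3 of 8 restricted pools above both controls, and Acadvl, with 7 of 8.

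**Figure D1:**
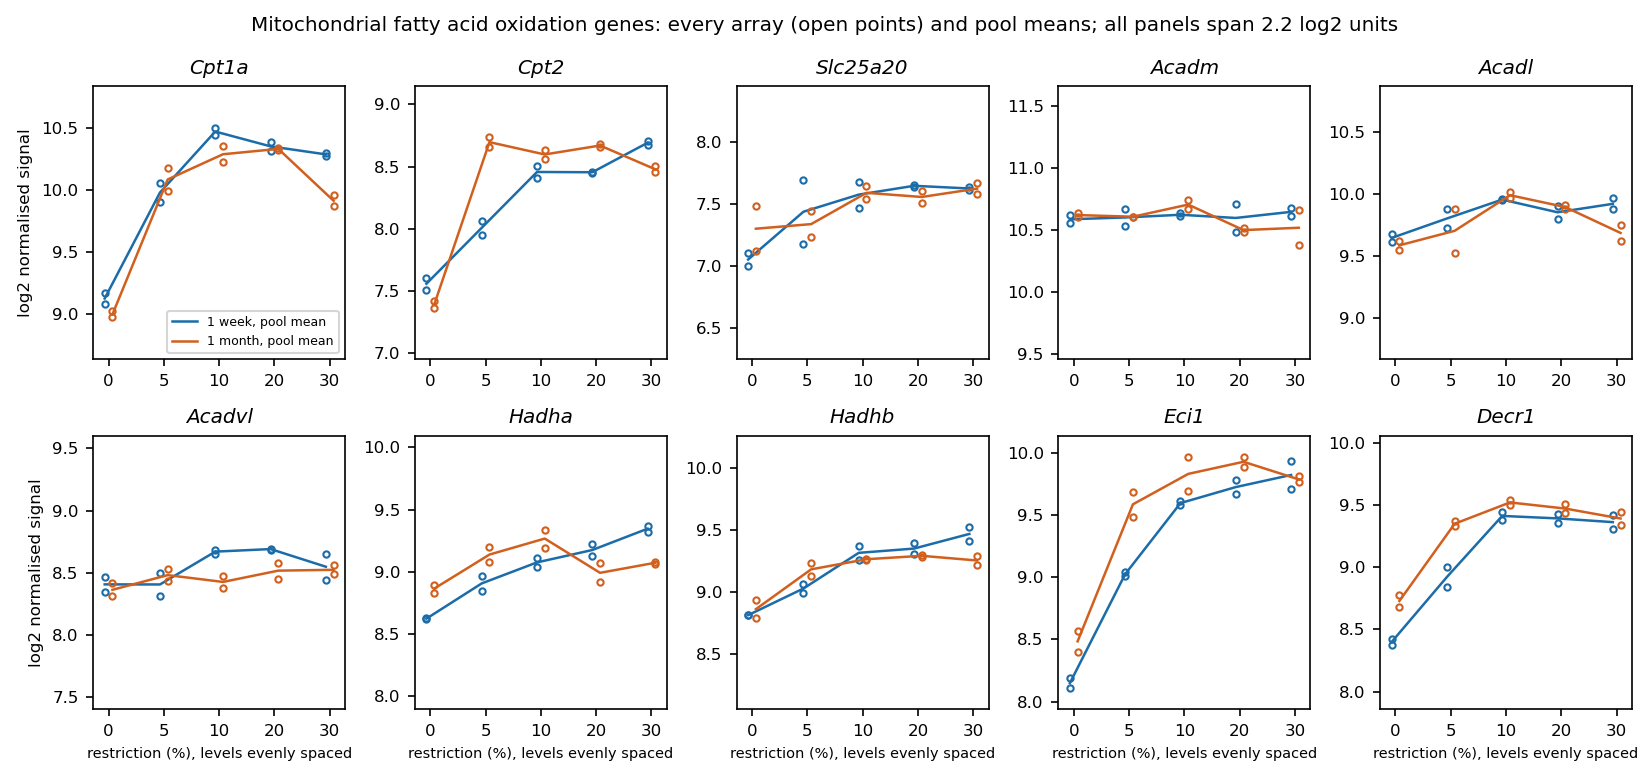
Log2 normalised signal (y axis) of the 10 genes against food restriction in percent (x axis, levels evenly spaced). Open points are single arrays and lines join the pool means at 1 week and at 1 month, and all panels span the same height. The control pools sit lowest for 8 genes, while the pools of Acadm lie between 1445 and 1666 array units.

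Cpt1a, the step of entry that malonyl-CoA inhibits, had a signal of 558 in the 1-week control pool. The pools restricted by 5%, 10%, 20% and 30% for 1 week gave 1008, 1417, 1304 and 1247. After 1 month the control gave 510.4 and the restricted pools 1084, 1248, 1286 and 963. All 16 restricted arrays lay above all 4 control arrays, and the highest pool was a 10% pool at 1 week and the 20% pool at 1 month. The step was 1.15 ± 0.122 (log2, SE), a 2.22-fold higher signal with a 95% interval of 0.89 to 1.41 and a limma adjusted p of 0.000723. A second probe set of Cpt1a, with controls at 278 and 235 and restricted pools from 534 to 986, rose by 1.51 ± 0.209 (limma adjusted p = 0.00235).

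Cpt2, the matrix carnitine acyltransferase, gave 188 in the 1-week control and 257, 351, 351 and 413 at rising levels of restriction. At 1 month the control gave 167 and the restricted pools 415, 387, 407 and 356. Control and restricted arrays did not overlap. At 1 week the highest signal was at 30%, while at 1 month the pool restricted by 5% was already the highest. The step was 1.03 ± 0.144 (2.05-fold, limma adjusted p = 0.00236). It was no longer called without the 1-month control pool, at 0.85 ± 0.199 (limma adjusted p = 0.0977).

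Slc25a20, the carnitine-acylcarnitine exchanger, moved less. Its pools read 133, 174, 191, 201 and 198 at 1 week and 158, 162, 193, 189 and 198 at 1 month, each from control to 30%. All restricted pools exceeded both controls, but the margin was narrow, since the 5% pool at 1 month lay close to its control and 12 of 16 restricted arrays were above every control array. The step was 0.37 ± 0.106 with a 95% interval of 0.14 to 0.60 and did not pass (limma adjusted p = 0.062). Without the 5% pool of 1 week it was 0.39 (limma adjusted p = 0.0376), and without that of 1 month 0.41 (limma adjusted p = 0.036).

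Eci1, the enoyl-CoA isomerase that shifts a misplaced double bond, had the largest step of the 10 genes by the brightest probe set of each. Its signal was 284 in the 1-week control and 521, 775, 847 and 906 with rising restriction. At 1 month it was 358 in the control and 769, 912, 976 and 884 in the restricted pools. The lowest restricted pool, 5% at 1 week, still lay above the higher control. The step was 1.35 ± 0.16, a 2.54-fold difference with a 95% interval of 1.00 to 1.69 (limma adjusted p = 0.00106). The name of this probe set marks probes that can match more than 1 related transcript. The other Eci1 probe set read 0.948 to 15.1 on single arrays, under the filter, and gave no usable level.

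Decr1, the dienoyl-CoA reductase of polyunsaturated fatty acids, was also higher in every restricted pool. It read 338 in the 1-week control and 485, 682, 673 and 659 in the restricted pools, and 424 in the 1-month control with 653, 735, 711 and 672. Its signal was highest at 10% at both durations, and arrays of the groups did not overlap. The step was 0.79 ± 0.115 (1.73-fold, limma adjusted p = 0.00251). Without the 1-week control pool it was 0.71 and was not called (limma adjusted p = 0.0712).

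Hadha and Hadhb, the α and β subunits of the trifunctional protein, are read in opposite directions from neighbouring starts on chromosome 6 in the rat reference. The 243 bases between the bounds of the 2 genes are shown because they lie before both genes, and their part in the signals was not tested. The sequence is from RefSeq (GRCr8, chr6:31907558-31907800, plus strand, all lower case, Hadha to the right). The array itself names no build.
Hadha-Hadhb: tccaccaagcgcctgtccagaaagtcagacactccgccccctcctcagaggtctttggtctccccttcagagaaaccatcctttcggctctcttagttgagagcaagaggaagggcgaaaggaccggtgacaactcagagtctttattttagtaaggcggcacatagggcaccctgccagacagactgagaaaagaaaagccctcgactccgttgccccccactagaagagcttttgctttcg
This stretch is 53.5% G and C and held 0 matches to any motif searched below.

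Hadhb, which carries the thiolase activity, read 451, 523, 638, 654 and 709.5 from control to 30% at 1 week, and 466, 582, 616, 628 and 612 at 1 month. Every restricted array was above every control array. The step was 0.43 ± 0.096 (1.35-fold, limma adjusted p = 0.0228). Without a control it was not called: the limma adjusted p was 0.239 without the 1-week control pool and 0.174 without the 1-month one. It was 0.171 when arrays were scaled by their medians alone.

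Hadha, which carries the hydratase and dehydrogenase activities, read 394, 479.6, 539, 578 and 651 at 1 week, and 466, 563, 616, 509 and 538 at 1 month. The controls themselves lay apart, with the 1-month control above the 1-week control by 0.24. All restricted pools were still above both, and 15 of 16 restricted arrays were above every control array. The step of 0.38 ± 0.11 (95% interval 0.14 to 0.62) did not pass (limma adjusted p = 0.0669), although without the 5% pool of 1 week it was 0.41 (limma adjusted p = 0.0247). The interval of Hadha overlapped that of Hadhb over most of its length, and the difference between the subunits was not tested.

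The 3 acyl-CoA dehydrogenases differed least between the diets. Acadm, the medium-chain enzyme, read 1535, 1551, 1574, 1546 and 1600 at 1 week and 1572, 1557, 1666, 1445 and 1464 at 1 month. Restricted pools lay on either side of the controls. Its step was -0.00 ± 0.063 with a 95% interval of -0.14 to 0.13 (limma adjusted p = 0.981), so a change of the size seen for Hadhb lay outside the interval. The sign of so small a value turned with several settings.

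Acadl, the long-chain enzyme, read 799.5, 891, 990.4, 923 and 967 at 1 week and 767, 832, 1015, 949.8 and 822 at 1 month. Its restricted pools lay above both controls, with the 10% pools the highest at both durations. The step of 0.23 ± 0.0837 did not pass (limma adjusted p = 0.138). Acadvl, the very-long-chain enzyme of the inner membrane, read 339, 339, 407, 413 and 374 at 1 week and 329, 357, 344, 366 and 368 at 1 month. The 5% pool of 1 week equalled its control. The step was 0.15 ± 0.0851 with a 95% interval of -0.04 to 0.33 (limma adjusted p = 0.379).

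**Figure D2:**
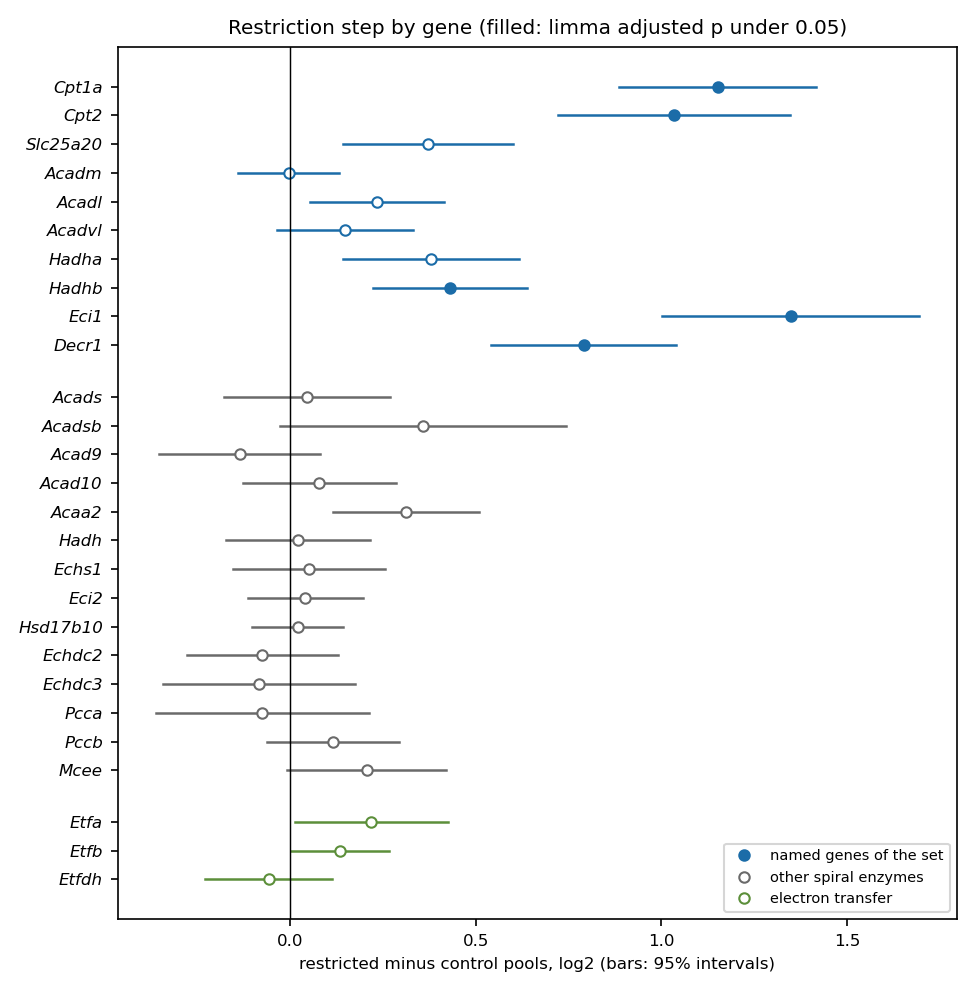
Restriction step (x axis, log2 of restricted minus control pools, bars are 95% intervals) for the 10 genes, for other enzymes of the mitochondrial spiral and for the electron transfer genes. The list of other spiral enzymes also holds Pcca, Pccb and Mcee of propionate breakdown. Filled points passed limma at an adjusted p under 0.05: Cpt1a, Cpt2, Hadhb, Eci1 and Decr1 did, and no other enzyme drawn here did.

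Acadm was bright on every array, so the other members were also set against it within each array on the deposited signals, where any common scaling cancels. This comparison was added after seeing the data and is a description that shows unequal change only. The Eci1 to Acadm ratio was 0.192 and 0.229 in the control pools and 0.332 to 0.690 in the restricted pools, 2.48-fold between the group means. For Cpt1a it was 0.327 and 0.376 against 0.636 to 0.892 (2.17-fold). The fold of the ratio was 2.06 for Cpt2, 1.68 for Decr1, 1.27 for Hadha and 1.08 for Acadvl. In 7 of the 9 other members all 8 restricted pools kept a higher ratio than both controls, the exceptions being Acadl with 7 pools and Acadvl with 5.

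The order of the calls over the levels was that of the size of the steps, which is largely built in, since a step averages the 4 levels. Each level was set against the same 2 control pools, so the 4 comparisons share their controls. At 5% restriction 2 genes rose by limma, Cpt1a by 0.97 and Eci1 by 0.99 (adjusted p = 0.0149 for each), where 0.273% of all probe sets were called higher. The second Cpt1a probe set, at 1.19, was not called at 5% (limma adjusted p = 0.0558). Cpt2 at 0.88 and Decr1 at 0.57 were higher by estimate at 5% but not called (limma adjusted p = 0.0843 and 0.0665). At 10% restriction 4 rose (background 1.33%), with Cpt2 at 1.06 and Decr1 at 0.90 called as well. At 20% and at 30% 5 rose (background 2.16% and 2.45%), with Hadhb at 0.48 and 0.52. Single pools moved these counts: at 5% to 0 without either control or the 5% pool of 1 month and to 4 without that of 1 week, and at 10% to 2 without the 1-week control or either 10% pool. At 20% it was 2 without the 20% pool of 1 week and 3 without that of 1 month or either control, and at 30% it was 2 without the 30% pool of 1 week and 3 without the 1-month control. The remaining members passed at no level, and at 30% they stood at 0.47 for Hadha, 0.45 for Slc25a20, 0.19 for Acadl, 0.15 for Acadvl and -0.02 for Acadm.

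**Figure D3:**
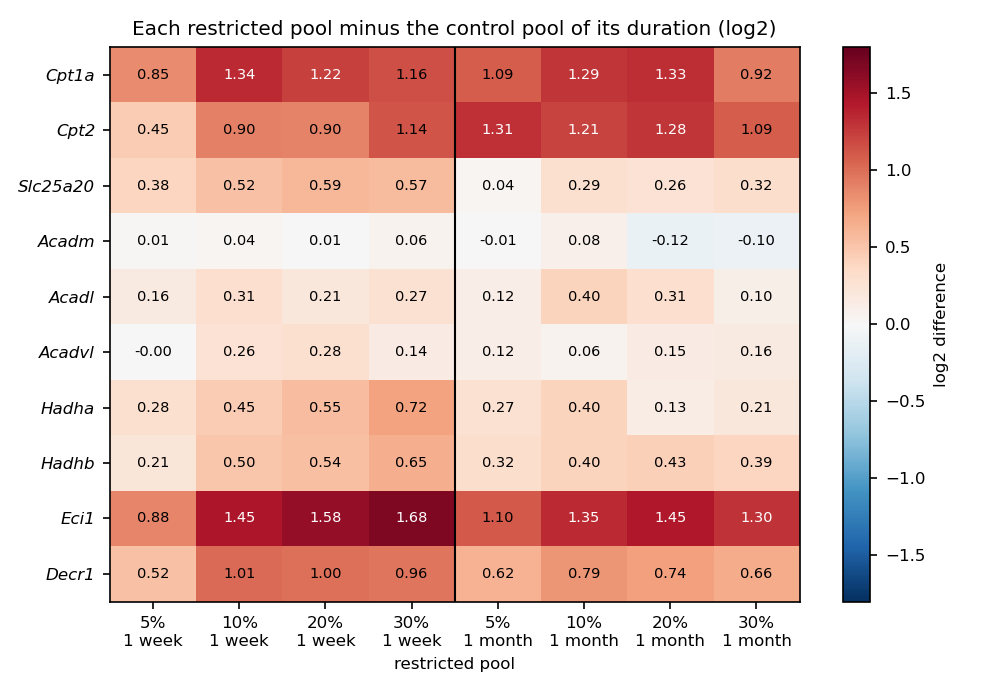
Log2 difference of each restricted pool from the control pool of the same duration, written in each cell and shaded from blue (lower) to red (higher), with genes in rows and pools in columns. Eci1 differs most, from 0.88 to 1.68, and Acadm stays between -0.12 and 0.08.

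A straight dose trend over all 10 pools called fewer of the genes. Over 30 percentage points only Eci1 rose (1.23 ± 0.305, limma adjusted p = 0.0467), 1 of 10 genes against 1.8% of all tested probe sets called higher, while 7 had an unadjusted p under 0.05. Hadhb had a slope of 0.45 ± 0.115 just above the threshold (limma adjusted p = 0.0507), and Cpt1a one of 0.77 ± 0.324 (limma adjusted p = 0.221). The median slope of the 10 genes was 0.43. The count was 0 without the control pool of either duration, without the 5%, 20% or 30% pool of 1 week or without the 20% pool of 1 month. It was 2 without either 10% pool or the 30% pool of 1 month, and 3 without the 5% pool of 1 month.

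The difference of Cpt1a from the controls at 5%, the mildest restriction, was near that at 30% (0.97 and 1.04). When the slope was fitted to the 8 restricted pools alone, an alternative added after seeing the data, 0 of the 10 genes passed by limma, and the 95% intervals of Eci1 and Hadhb alone excluded 0. For Cpt1a that slope was -0.01 ± 0.179 (95% interval -0.40 to 0.39) and for Cpt2 0.24 ± 0.184. Eci1 kept the steepest one, 0.51 ± 0.179 with an interval of 0.12 to 0.90 (limma adjusted p = 0.252). From 5% to 30% Eci1 differed by 0.50 ± 0.127 (limma adjusted p = 0.204) and Cpt1a by 0.07.

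**Figure D4:**
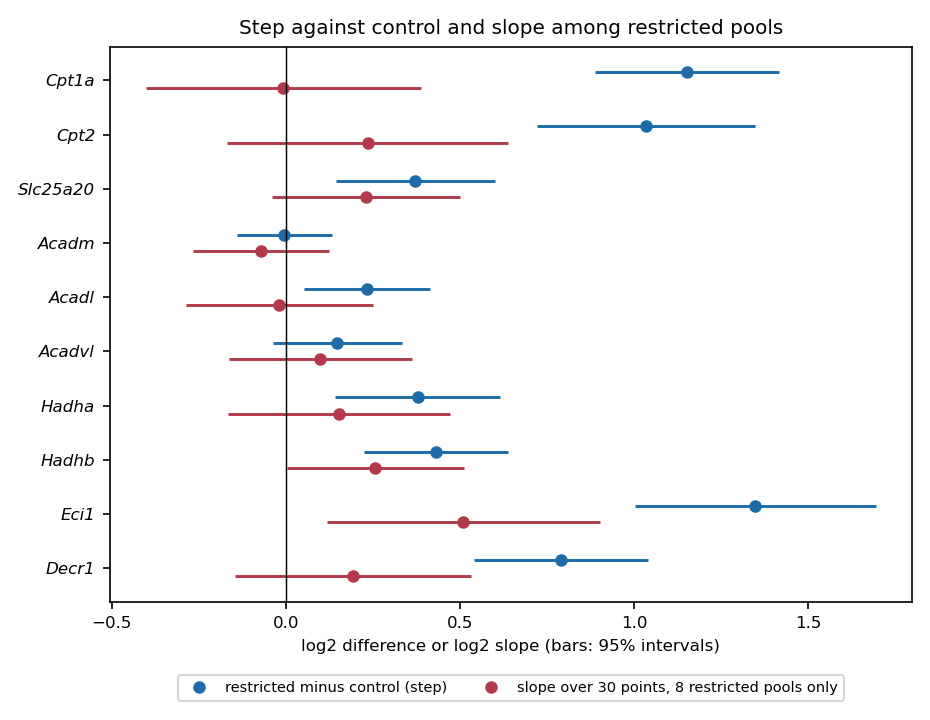
For each of the 10 genes, the step of restricted against control pools (blue) and the slope over 30 percentage points within the 8 restricted pools (red), both in log2 on the x axis with 95% intervals. Cpt1a has a step of 1.15 beside a slope of -0.01, and Eci1 has 1.35 beside 0.51.

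The step was also taken at each duration. By its second probe set Cpt1a stood at 1.38 at 1 week, where it was not called, and at 1.64 at 1 month, where it was called. The calls below are those of the brightest probe sets. At 1 week 3 genes rose by limma (background 0.504%): Cpt1a by 1.15 ± 0.181, Eci1 by 1.39 ± 0.236 and Decr1 by 0.87 ± 0.167, with adjusted p-values of 0.0321, 0.0321 and 0.0438. At 1 month 3 rose (background 1.01%): Cpt1a by 1.16 ± 0.181, Eci1 by 1.30 ± 0.236 and Cpt2 by 1.22 ± 0.2, with limma adjusted p-values of 0.0175, 0.0329 and 0.0201. These calls rest on 1 control pool per duration and depended on single pools: at 1 week 6 genes passed without its 5% pool and 0 without the 10% or the 20% pool of either duration, and at 1 month 0 passed without its 10% pool.

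The test of the difference between the durations called 0 of the 10 genes by limma, and 0 had an unadjusted p under 0.05. For Cpt2 the step was 0.85 ± 0.2 at 1 week, and the 1-month step was larger by 0.38 ± 0.282 (limma adjusted p of the difference = 0.969). For Cpt1a the difference was 0.01 with a 95% interval of -0.55 to 0.57. Slc25a20 and Hadha differed the other way, by -0.29 ± 0.205 and -0.25 ± 0.218, with 95% intervals that held 0.

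Hadha had a dose slope of 0.65 ± 0.162 over 30 points at 1 week (limma adjusted p = 0.0848) and of 0.05 at 1 month. The slopes differed by -0.60 ± 0.229, with an unadjusted p of 0.024 and an adjusted p of 0.903 by limma. All 10 slopes were lower at 1 month than at 1 week by estimate, with a median difference of -0.28, and 0 of these differences passed by limma, with Hadha the 1 gene under an unadjusted p of 0.05. The comparison of the mean levels at 1 month and 1 week called 0 of the 10 genes by limma. The adjusted p-values ran from 0.705 to 0.971, and no gene reached an unadjusted p of 0.05.

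Across the 10 pools the members varied together, except Acadm. The points share the normalisation and the diet levels, so the correlations are descriptions. Eci1 and Decr1 had the closest course, with a Pearson r of 0.99 over the 10 pools and 0.94 within the 8 restricted pools. Hadha and Hadhb stood at 0.89 and 0.74, below Hadhb and Eci1 at 0.94 and 0.78. Cpt1a and Cpt2 stood at 0.91 over all pools but 0.38 within the restricted pools, where Cpt2 went with Eci1 (0.86) and Cpt1a with Acadl (0.82). Acadm correlated with the other members at -0.13 to 0.39. Against the mean of the 10 genes, r was highest for Eci1 at 0.98 and lowest for Acadvl at 0.67 and Acadm at 0.07. Each gene is part of that mean, and genes that moved most weigh most in it, so this order is partly built in.

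The named genes whose pools followed the mean of the members most closely over the 10 pools were Ech1, Usp2, Sar1b, Slc27a2 and Tp53i13, with r from 0.97 to 0.99. Ech1 is a further auxiliary enzyme of unsaturated fatty acid oxidation, and its step was 1.64 ± 0.197 (limma adjusted p = 0.00106). Usp2 is a deubiquitinase with a daily rhythm in liver, and its step was 2.04 ± 0.268 (limma adjusted p = 0.00168).

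Clock genes moved with the step as well. Of 13 tested genes of the circadian list 6 rose and 1 fell, with a median of 1.29. Dbp read 4.17 and 7.12 in the control pools, under the lowest mean signal tested of 11.7, and 33.5 to 296 in the restricted pools. Per2 read 5.77 and 16.5 in the controls and 40.3 to 92.7 in the restricted pools (limma adjusted p = 0.000657). The part of clock phase in the differences of the oxidation genes was not tested. Summed endothelial markers also lay higher, at 204 and 246 in the control pools and 267 to 331 in the restricted pools. Of the 5 on the array Vwf lay under the filter, and of the 4 tested Kdr rose (0.60 ± 0.108, limma adjusted p = 0.00899). With dose, Ehd3 of the same list rose by 1.17 ± 0.210 (limma adjusted p = 0.0135). Cd14 rose by 1.01 ± 0.168 (limma adjusted p = 0.0101), and 3 of the 5 tested macrophage markers had slopes above 0. Lyz2 of that list stood at -0.42 ± 0.141 (limma adjusted p = 0.128). The macrophage markers were summed at 782 and 794 in the control pools and 655 to 819 in the restricted pools. The exocrine pancreas marker Cela1, the only 1 tested of 8 on the array, fell with dose by 0.53 ± 0.132 (limma adjusted p = 0.0477). The bile duct markers were summed at 66.5 and 77.0 in the control pools and 42.8 to 59.9 in the restricted pools, with 3 of 4 (Krt7, Krt19, Spp1) under the filter. The part of these cells in the step and in the dose trend of Eci1 was not tested.

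A measure of RNA integrity on the array, the 3′ to 5′ signal ratio of GAPDH, was 1.51 to 1.53 in the control pools and 1.27 to 1.67 in the restricted pools. With this ratio, or that of beta-actin, as a covariate, the same 5 genes passed the step. The dose trend of Eci1 was then not called, at 1.56 ± 0.42 with the GAPDH ratio (limma adjusted p = 0.13) and 1.60 ± 0.405 with that of beta-actin (limma adjusted p = 0.11). With the GAPDH ratio the dose trend called 0 of all tested probe sets in either direction, so its loss was not particular to Eci1. With the beta-actin ratio 0 of the 10 genes passed at 5% and at 30%. At 30% that fit called 1 of all tested probe sets higher, against 233 without the ratio.

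Of 14 tested genes listed as other enzymes of the mitochondrial spiral 0 passed the step in either direction by limma. Of these 1 had an unadjusted p under 0.05, and the median was 0.04. The list is wider than the spiral, since it holds Pcca, Pccb and Mcee of propionate breakdown and the less defined Echdc2 and Echdc3. Acaa2, the soluble thiolase of medium chains, stood at 0.31 ± 0.0909 (limma adjusted p = 0.0685), while the short-chain enzymes Hadh and Acads stood at 0.02 and 0.04. Acadsb, which handles branched short chains, rose with dose by 0.63 ± 0.144 (limma adjusted p = 0.0351). The electron acceptors Etfa, Etfb and Etfdh gave 0 calls of 3 by limma (2 at an unadjusted p under 0.05). The 16 enzymes of the citrate cycle, mitochondrial but outside the pathway, gave 0 calls at the step by limma (2 at an unadjusted p under 0.05) and a median of -0.01.

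Genes of fatty acid activation and carnitine handling went both ways, with 3 of 14 higher and 2 lower. Slc22a5, the carnitine importer of the plasma membrane, read 24.7 and 23.6 in the control pools and 33.9 to 48.0 in the restricted pools and rose by 0.71 ± 0.131 (limma adjusted p = 0.0103). The very-long-chain acyl-CoA synthetases Slc27a2 and Slc27a5 rose by 0.39 and 0.43. Of the long-chain synthetases Acsl3 fell by 1.35 ± 0.221 (limma adjusted p = 0.00537) and Acsl5 fell by 0.43, while Acsl1 stood at 0.11. The restricted pools of Acsl3, at 9.83 to 16.9, lay near the lower bound of the tested signals.

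Of the 7 tested genes around malonyl-CoA and AMP-activated kinase 0 passed the step by limma (3 at an unadjusted p under 0.05). Acaca, which makes malonyl-CoA for fatty acid synthesis, read 327 and 323 in the control pools and 102 to 263 in the restricted pools. It fell with dose by 1.35 ± 0.195 over 30 points (limma adjusted p = 0.0061), and its step was -0.95 (limma adjusted p = 0.0652). Mlycd, which degrades malonyl-CoA, stood at 0.28 (limma adjusted p = 0.0651). Of 3 tested genes of ketone body synthesis and export, the transporter Slc16a1 fell by 0.98 (limma adjusted p = 0.0318).

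In peroxisomes, where very long and branched chains are shortened, 4 of 13 tested genes rose and 0 fell, with a median of 0.22. Besides Ech1 these were Hacl1 (1.33 ± 0.195, limma adjusted p = 0.00255), Phyh (0.80) and Ehhadh (0.83), of which Hacl1 and Phyh serve α-oxidation and Ehhadh is the bifunctional enzyme. Decr2, the peroxisomal counterpart of Decr1, rose with dose by 0.85 ± 0.117 (limma adjusted p = 0.00541).

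Other genes known to respond to PPARα in fasting did not share 1 direction. Of 11 tested, Cyp4a3, a fatty acid hydroxylase, rose by 0.82 ± 0.102 (limma adjusted p = 0.00107), and Pdk4, which restrains pyruvate oxidation, fell by 0.93 ± 0.243 (limma adjusted p = 0.0446). Cyp4a1 stood at 0.58 ± 0.161 (limma adjusted p = 0.0578) and Angptl4 at -0.61 (limma adjusted p = 0.121). Plin2, the lipid droplet coat protein, fell with dose by 1.37 (limma adjusted p = 0.0467). By estimate 7 of the 11 steps were above 0, with a median of 0.18, and 5 of the 11 dose slopes were. Among 11 tested regulators Ppard fell by 1.50 ± 0.211 (limma adjusted p = 0.00238). Ppara itself read 3.20 to 26.3, around the lowest mean signal tested, with a step of 1.15 ± 0.646 that did not pass (limma adjusted p = 0.367).

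**Figure D5:**
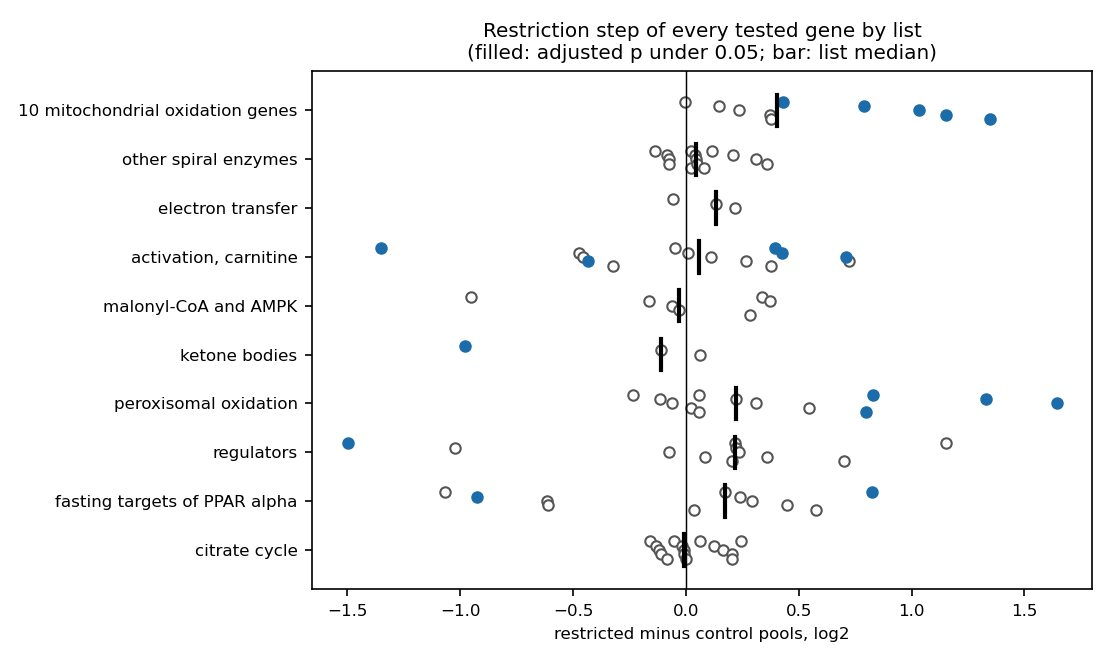
Restriction step (x axis, log2 of restricted minus control pools) of every tested gene, with 1 line of points per gene list. Filled points passed limma at an adjusted p under 0.05 and black bars are list medians. These stand at 0.40 for the 10 oxidation genes, 0.22 for peroxisomal oxidation and 0.04 for the list of other spiral enzymes, which also holds genes of propionate breakdown.

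PPARα binds, with RXR, a direct repeat of AGGTCA with 1 base between the copies, and clock proteins bind CACGTG and TTATGNAA. These were searched on both strands of 300-base promoters (250 before to 50 after the start) in the RefSeq table of GRCr8. Of the 10 members 8 matched an entry, all but Acadl and Decr1. AGGTCA was in 3 of the 8 promoters (Acadvl, Eci1, Hadhb) and in 16.2% of all 33469 promoters. The exact direct repeat was in 0 of 8 and in 0.0538% of all. With up to 2 mismatches over its 12 fixed bases it was in 2 of 8, Acadvl and Slc25a20, and in 3.77% of all, and these matches overlap those of the single AGGTCA in Acadvl. CACGTG was in 0 of 8 (6.42% of all) and TTATGNAA in 0 of 8 (3.66% of all).

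The 100 bases before the start are printed for Eci1, whose step was the largest by the brightest probe set, and for Acadvl, a gene without a called step whose promoter holds the nearest match to the direct repeat. Capitals mark AGGTCA on the reverse strand in Eci1 (chr10:13961150-13961249, plus strand) and the direct repeat with 1 mismatch in Acadvl (chr10:55236706-55236805, minus strand).
Eci1: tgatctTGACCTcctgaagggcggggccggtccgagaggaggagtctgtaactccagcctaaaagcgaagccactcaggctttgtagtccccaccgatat
Acadvl: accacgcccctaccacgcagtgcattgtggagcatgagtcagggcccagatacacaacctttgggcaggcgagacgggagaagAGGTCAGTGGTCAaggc
Sequence outside the 300-base promoters was not searched, and the part of these motifs in the steps was not tested. A match is a run of letters and no measured binding.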

How the data were processed

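Liver RNA pools were hybridised to rat GeneChip arrays, 20 arrays of 10 pools. The authors deposited MAS5 signal intensities per probe set, per the submitters' processing notes. The sources used here give neither the version nor the scaling target. The 57 control probe sets were left out, 32 zeros were set to the smallest positive signal of their array, and arrays were quantile normalised on the log2 scale and averaged per pool. Probe sets in the upper 60% by mean signal (9520 of 15866, from 11.7 units) were tested with limma 3.58.1 in R 4.3.3, with Benjamini-Hochberg adjustment over all of them. Of these, 8120 carried 1 gene symbol, 245 several and 1155 none. The brightest probe set stood for a gene. Every member is named, and genes of the other lists are named as examples, some chosen after their values were seen. No condition has a second pool, so p-values rest on departures of pools from the fitted model, and the number of pools limits precision. The fits were tested on simulated data. The members and lists were chosen with earlier results of these data known. Genes most like the members were the 5 with the highest Pearson r with the members' mean. Alternatives changed scaling, filter, added constant, variance trend, covariates, array number and pools. Fits without both control pools and of 30% against 5% were chosen after seeing the data. Arrays with the same number did not deviate together between pools (median r 0.0343, 2 pairs above 0.1), so the number does not pair them.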

Additional observations from a re-analysis of the deposited data

How the results depend on the processing

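Cpt1a and Eci1 kept a called step in 22 of 22 alternatives, from 1.11 to 1.37 and from 1.26 to 1.56. Cpt2 and Decr1 kept it in 21 of 22, Hadhb in 16, Slc25a20 in 3, Hadha in 2, and Acadm, Acadl and Acadvl in 0. Counts below are members called higher. Leaving out single pools, or the arrays of 1 number, gave 3 to 7 for the step (5), 0 to 3 for the dose trend (1), 0 to 6 for the step at 1 week (3) and 0 to 4 at 1 month (3), 0 to 4 at 5% (2), 2 to 5 at each of 10% (4), 20% (5) and 30% (5), and 0 to 4 for the slope at 1 week (0). The 7 members arose without the 5% pool of 1 week, the 3 without the control pool of either duration. The dose trend called 0 with signals as deposited, median centring, no filter, no variance trend, either 3′ to 5′ ratio, or without both control pools, and 2 with the upper 40% of probe sets, 16 added to the signals or the mean of a gene's probe sets. Signals as deposited gave 1 for the step at 1 week and 3 at 30%. Median centring gave 0 for the step at 1 week, 0 at 5% and 2 at 30%. Without a variance trend the counts were 0 at 1 week, 1 month, 5%, 10% and 20%, and 2 at 30%. At 5%, 10% and 20% that fit called 0 of all 9520 probe sets higher, so the 0 there is not particular to the members. With the beta-actin ratio the counts were 0 at 5% and at 30%, and at 30% 1 of all 9520 probe sets was called higher (233). The GAPDH ratio left 0 of all probe sets called for the dose trend. Another fit took single arrays, with array number as a replicate block and pool as a random block. Its counts were 7 for the dose trend, 7 for the step, 7 at 1 week and 5 at 1 month. At 5% it gave 4, at 10% 8 and for the slope at 1 week 5. Calls over all 9520 probe sets rose as well, with 426 higher for the dose trend (171), 210 at 1 week (48) and 263 at 1 month (96). They were 164 at 5% (26), 392 at 10% (127) and 284 for the slope at 1 week (28). That for the step is not given here. Members with all restricted pools above both controls (8) were 3 as deposited and 5 with median centring, and 5 by single arrays, given without the share over all probe sets. As deposited, the median of all probe sets shifted by 0.251. The Acadm step, not called, turned above 0 to 0.25 as deposited, 0.013 with median centring and 0.0069 with the GAPDH ratio, and ran from -0.038 without the 1-week control to 0.030 without the 1-month control, with 0.019 without arrays numbered 1. Its dose trend turned to 0.058 as deposited. Without both control pools the uncalled slopes of Cpt1a and Acadl turned to -0.0065 and -0.018. The cause of these moves was not tested. Over all 9520 probe sets the step called 49 to 530 higher (301) and 13 to 373 lower (201), and the dose trend 0 to 426 higher (171) and 0 to 392 lower (187).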
